A study of Mus musculus with 2 samples.

Results

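The transcription regulators of cardiac progenitors Nkx2-5, Isl1, Tbx5, Tbx20, Hand1, Hand2, Mef2c, Gata4, Gata6 and Hopx were followed in embryoid bodies, which are aggregates of differentiating embryonic stem cells. Every probe set that the platform annotation assigns to exactly 1 of these 10 genes was taken, which gave 25 of the 45101 probe sets on the array. The embryoid bodies were made in hanging drops from CGR8, a mouse embryonic stem cell line of strain 129 that had been kept without feeder cells in serum and leukemia inhibitory factor. The control group, 1 array, received differentiation medium with no added agent, and the FGF10 group, 1 array, received the same medium with recombinant FGF10, a secreted fibroblast growth factor, at 100 ng/ml. Both samples are labelled day 2, while the design text has RNA taken 24 hours after treatment of embryoid bodies that had already reached day 2, so their age is known only within that range. Since a group is 1 array, nothing here was checked in replicates or tested, and each ratio compares this pair of arrays only.

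These factors form the core of the network that turns mesoderm into heart. Gata4 and Gata6 are zinc finger proteins that bind GATA sites and act with the homeodomain protein Nkx2-5 and with T-box proteins on shared cardiac targets. Isl1, a LIM homeodomain protein, and Mef2c, a MADS-box protein, are known for their role in the second heart field, Tbx5 for the first heart field and atria, and the basic helix-loop-helix proteins Hand1 and Hand2 for the ventricles. Several are not restricted to the heart: Gata4 and Gata6 are also factors of the primitive endoderm, which lines embryoid bodies, Hand1 is a factor of trophoblast giant cells, Isl1 of motor neurons, and Mef2c of endothelium and neurons.

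Most of the cardiac progenitor factors were within the signal range of genes not expected in these cells. The value on each array is the MAS5 signal, a linear intensity in arbitrary units that combines the matched and mismatched probes of a probe set. A probe set was kept when its mean signal over both arrays was at least 76.35, the median over the array without its chip controls. Of the 25 probe sets, 7 were kept, and they belong to 4 members, Gata4, Gata6, Hopx and Nkx2-5. The other 18 probe sets were below the filter, and for 6 members, Isl1, Tbx5, Tbx20, Hand1, Hand2 and Mef2c, no probe set was kept.

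As a gauge of background, the 43 probe sets of 38 olfactory receptor genes, which sensory neurons of the nose express, were read on the same arrays. In control embryoid bodies they ran from 1 to 82.2, with a median of 14.4, and with FGF10 from 1.1 to 66.2, with a median of 10.9. On each array, all 7 kept probe sets of the cardiac factors were above the highest olfactory receptor probe set. All 18 others lay within the olfactory receptor range on both arrays. For those 18 the deposited signals were not told apart from background, which does not show that a transcript was absent or low. One of them, 1443081_at of Gata6, read 1.4 and 10.4, while 1425464_at of the same gene read 206.2 and 412.

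**Figure D1:**
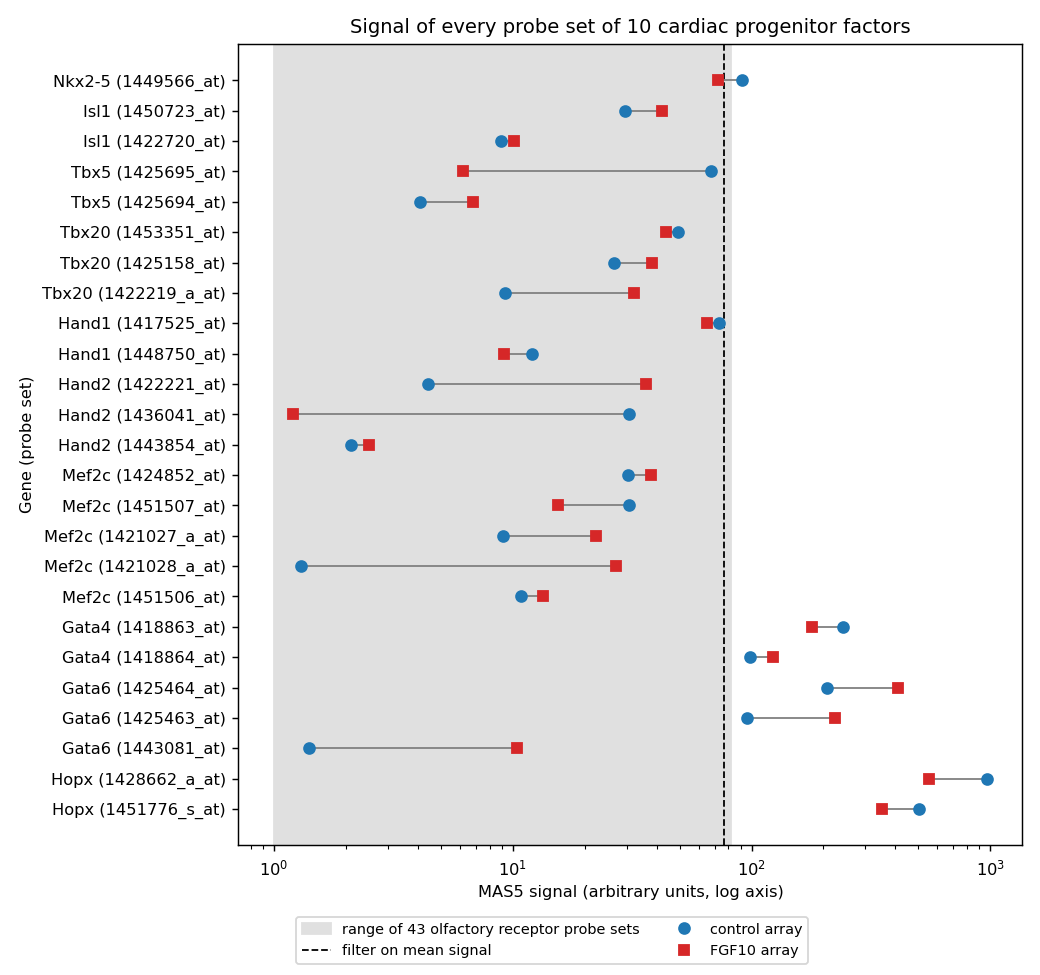
MAS5 signal (log axis) of the 25 probe sets of the 10 members, with the control array as circles, the FGF10 array as squares, the range of 43 olfactory receptor probe sets over both arrays in grey and the filter of 76.35 dashed. Gata4, Gata6 and Hopx have pairs of points to the right of the grey band, Nkx2-5 lies at its edge, and the other members lie inside it; levels of different probe sets are not comparable with each other.

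Gata6 was the 1 measured member at least 1.5-fold higher on the FGF10 array. Probe set 1425464_at read 206.2 in the control and 412 with FGF10, and 1425463_at read 96 and 222.6. All 4 of these signals exceeded the filter level. Ratios below are log2 of FGF10 over control minus the median over kept probe sets, which was 0.034. On that scale the Gata6 ratios were 0.96 (1.95-fold) and 1.18 (2.26-fold). The remaining probe set, 1443081_at, read 1.4 and 10.4, within the background range on both arrays, and no ratio is read from it.

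The position of these ratios among probe sets of like brightness was as follows. When kept probe sets were divided into 5 equal groups by mean signal, 1.58% of the group that holds 1425464_at had a ratio at or above that of 1425464_at. For 1425463_at the share was 1.22%. The mean signal of 1425464_at (309.1) was near the lower edge of its group (300.05 to 668.7), so most of that group was brighter. That of 1425463_at (159.3) was likewise near the lower edge of its own group (142.9 to 300). In the group of 1425464_at, 6.57% were at least 1.5-fold higher, against 9.92% in the next dimmer group, which holds 1425463_at. In the dimmest group the share was 13.8%. Both kept probe sets of Gata6 were past 1.5-fold, the size used here to count differences, whereas among the 5213 genes that have more than 1 kept probe set, 1.52% were at least 1.5-fold higher on every one. Probe sets of a gene share the RNA of 1 sample, so their agreement covers error within the array and not variation between cultures. In bulk RNA, more cells of a type and more RNA per cell cannot be told apart.

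Hopx was the 1 measured member at least 1.5-fold lower on the FGF10 array, by its brightest probe set. Hopx encodes a small atypical homeodomain protein that does not bind DNA and acts on the serum response factor, and it is expressed in the developing heart. Probe set 1428662_a_at read 966.8 in the control and 551.1 with FGF10, a ratio of -0.85 (1.80-fold lower). Probe set 1451776_s_at read 501.7 and 352.6, a ratio of -0.54 (1.46-fold lower), which is just inside the 1.5-fold limit. Both probe sets had a ratio below 0, as did every kept probe set for 1365 of the 5213 genes with more than 1. In their groups of like brightness, 0.488% and 3.95% of kept probe sets had a ratio at or below theirs. The mean signal of 1428662_a_at (758.95) was near the lower edge of its group (668.75 to 1718.9), so most of that group was brighter. In that group 1.51% were at least 1.5-fold lower, against 3.24% in the next dimmer group, which holds 1451776_s_at.

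Because Hopx is the one member with a difference past 1.5-fold for which RefSeq gives a start region in the table used here, its promoters are shown. RefSeq (GRCm38.p6) gives windows for 6 of the 10 members, 9 windows in all, and 2 of them for Hopx, both on the minus strand of chromosome 5. The 250 bases before each start are printed 5′ to 3′ in lower case, with capitals for matches to 4 motifs searched on both strands. The motifs were the Nkx2-5 element TNAAGTG, the GATA site as AGATAA or TGATAA, the T-box element AGGTGT and the E-box CANNTG, where N is any base and GATA and E-box matches may overlap others.

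Hopx, chr5:77095268-77095517: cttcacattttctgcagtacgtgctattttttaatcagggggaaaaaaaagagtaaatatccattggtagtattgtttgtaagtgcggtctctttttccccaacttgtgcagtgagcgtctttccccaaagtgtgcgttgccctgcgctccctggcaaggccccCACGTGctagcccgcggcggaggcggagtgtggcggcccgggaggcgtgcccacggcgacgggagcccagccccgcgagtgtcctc
Hopx, chr5:77115124-77115373: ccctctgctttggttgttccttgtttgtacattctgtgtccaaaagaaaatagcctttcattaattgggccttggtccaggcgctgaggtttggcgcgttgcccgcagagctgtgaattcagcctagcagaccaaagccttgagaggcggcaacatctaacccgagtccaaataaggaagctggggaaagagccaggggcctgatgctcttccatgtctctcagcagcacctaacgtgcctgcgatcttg

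The first Hopx window held 1 match, an E-box that starts at position -86 from the transcript start, and the second held 0 matches. Of 32851 windows of the same length, 66.2% held an E-box, 16.6% a GATA site, 11.8% a T-box element and 10.1% an Nkx2-5 element. Among the other members with windows, the GATA letters occurred once in the window of Isl1 and at 2 places in that of Hand2, and the T-box letters in 1 of 3 windows of Mef2c. A match is a description of the letters and was not tested as a binding site.

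The probe sets of Gata4 pointed in opposite directions. Probe set 1418863_at read 242 in the control and 179.3 with FGF10 (-0.47), and 1418864_at read 98.2 and 123 (0.29). Both were within 1.5-fold, and no direction can be given for the gene. Among the 5213 genes with several kept probe sets, 46.0% had ratios of both signs, and in 13.0% the probe sets lay at least as far apart as the 0.76 between those of Gata4. Gata6, its relative, was higher on both of its kept probe sets, and the difference between the ratios of Gata4 and Gata6 was not tested.

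Nkx2-5, a homeodomain factor that marks committed cardiac progenitors, has a single probe set, which read 91 in the control and 72 with FGF10 (-0.37). The control signal was above the filter level and the FGF10 signal below it. In the dimmest group of kept probe sets, 21.2% had a ratio at or below that of Nkx2-5, and the signals were only slightly above the brightest olfactory receptor probe set of each array (82.2 and 66.2). The value is within 1.5-fold and near the limit of what the array reads.

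The heart field factors Isl1, Tbx5 and Tbx20 were not above background on either array. Isl1 read 29.5 and 42.1 on its brighter probe set and 8.9 and 10.1 on the other, in the order control and FGF10. Tbx5 read 67.5 and 6.2 on 1425695_at, and 4.1 and 6.8 on 1425694_at. The drop on the first Tbx5 probe set and the rise on the second lay within the background range, so neither gives a direction. Tbx20, a T-box repressor needed for the growth of the heart tube, read 49.1 and 43.7, 26.6 and 38.4, and 9.3 and 32.2 on its 3 probe sets, of which 1 was lower and 2 were higher with FGF10.

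Hand1, Hand2 and Mef2c were likewise within the background range. Hand1 read 73.4 and 64.9 on 1417525_at, close under the filter and dimmer on the FGF10 array, and 12 and 9.2 on its other probe set. Probe set 1417525_at was near the top of that range, brighter than 41 of the 43 olfactory receptor probe sets in the control and 42 with FGF10. The probe sets of Hand2 gave 4.4 and 36.3, 30.7 and 1.2, and 2.1 and 2.5, that is, a large rise, a large drop and near equality for 1 gene. Mef2c has 5 probe sets, whose signals ran from 1.3 to 30.7 in the control and from 13.4 to 38 with FGF10. In all, 4 of the 5 read higher with FGF10, the widest gap being from 1.3 to 27.1 on 1421028_a_at, and 1451507_at read lower, from 30.7 to 15.5.

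Ratios of that size are common at this level of signal. The 18 dim probe sets of the cardiac factors had ratios from -4.71 to 4.35, with 6 at least 1.5-fold higher and 3 lower. That is 50.0% past 1.5-fold in either direction, where 60.0% of all 22513 probe sets below the filter and 62.8% of the olfactory receptor probe sets were past it. The ratios of the dim members had an SD of 2.11 and those of the olfactory receptor probe sets an SD of 1.76, both over probe sets and not over replicates. The members' share is near the background, and no difference is read from these probe sets.

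**Figure D2:**
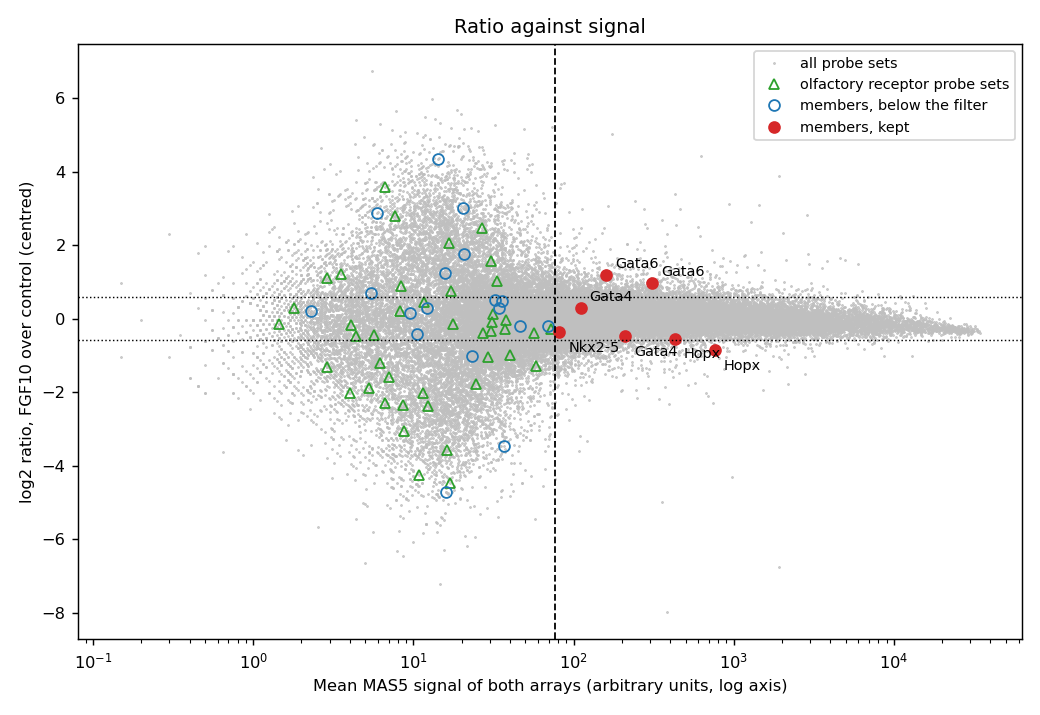
Centred log2 ratio of FGF10 over control against mean MAS5 signal (log axis) for all probe sets (grey), olfactory receptor probe sets (triangles) and the members below (open circles) and above (filled circles) the filter of 76.35 (dashed); dotted lines mark 1.5-fold. The open circles spread from -4.71 to 4.35 among the triangles, while the filled circles of Gata6 (0.96 and 1.18) and Hopx (-0.85 and -0.54) lie at the edges of a narrower cloud.

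Among the 7 kept probe sets, 2 were at least 1.5-fold higher, both of Gata6, and 1 was at least 1.5-fold lower, of Hopx. Over all 22524 kept probe sets, 7.03% were higher and 4.71% lower by that size. By gene, with each gene read from its brightest kept probe set, 1 of the 4 members was higher (Gata6) and 1 lower (Hopx). Over all 11122 genes 5.41% were higher and 4.86% lower. The 4 measured members had a median ratio of -0.42 and all genes one of -0.027. Only 4 genes were measured, too few to place the group against the background, and the counts are given as a description.

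The related genes around these factors were read by the same rule. Among 30 other cardiac transcription factors, 13 were kept, with a median ratio of -0.081, 2 of them at least 1.5-fold higher and 1 lower. The higher ones were Meis2 (79.9 and 148.7, 0.86) and Mef2b (73.4 and 114.1, 0.60), and the lower one was Wt1 (145.7 and 88.7, -0.75), all dim and each read by 1 kept probe set. Unlike Mef2c, its relatives Mef2a (609.6 and 662.9) and Mef2d (489 and 556.2) had kept probe sets and were within 1.5-fold on the brightest of them. One dimmer probe set of Mef2d gave -1.48, against 0.15 for the brightest.

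Transcripts of proteins that act with the cardiac factors were readable in part. Of 19 cofactors and partners, 15 were kept, with a median of 0.027, 0 were at least 1.5-fold higher and 1 was lower. The lower one was Hdac9, a class II deacetylase that binds Mef2 proteins, with signals of 136.5 and 68.1 (-1.04), the second of them under the filter level. The Gata cofactor gene Zfpm1 was at -0.21 and the Isl1 partner gene Ldb1 at -0.36, while Zfpm2, the Fog cofactor of Gata4 in heart, Smarcd3, Twist1 and Twist2 were below the filter. Tcf3 (0.39), Tcf12 (0.48) and Tcf4 (0.55), which encode the E proteins that pair with Hand1 and Hand2, were within 1.5-fold on their brightest probe sets. Kept probe sets ran from 0.16 to 0.59 for Tcf3 and from 0.18 to 1.92 for Tcf12, so both also had one past 1.5-fold. Srf, which encodes the serum response factor on which Hopx acts, was at -0.11.

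Factors and signals that precede the cardiac progenitor factors in development were read next. Of 12 nascent mesoderm factors, 9 were kept, around a median of 1.63. Among these, 7 had a 1.5-fold or larger rise with FGF10 and 0 a fall of that size, the lowest ratio being -0.49. T was among the 12 but had no probe set of its own name and was not read. Mesp1, which acts ahead of Nkx2-5, Hand2 and Gata4 in cardiac mesoderm, went from 94.6 to 621.2 (2.68) where Nkx2-5 went from 91 to 72. Of 20 signals that induce or restrain heart mesoderm, 13 were kept, 7 of them higher and 2 lower by that size, around a median of 0.81. The higher ones included Cer1 (2.98), Fgf8 (1.81), Chrd (1.19), Bmp2 (1.18) and Dkk1 (1.01). Lower were Fgf4 (-1.56) and Shh (-0.62). The control signal of Cer1 (60.6) was under the filter level. Bmp2, an inducer of cardiac genes, went from 121.4 to 280.8. Signals that induce and signals that restrain were not counted apart, and Fgf10 itself was below the filter. The difference between these lists and the members was not tested.

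Genes that the cardiac factors are known to activate were mostly too dim to read. Of 25 contractile, natriuretic and junction genes, 19 were below the filter, among them Nppa, Myl7 and Tnnt2. The 6 kept genes had a median of -0.22, with Tnnc1 higher (0.61) and Mybpc3 (-1.27) and Actn2 (-0.63) lower, and 1 signal of Tnnc1 and of Mybpc3 was under the filter level. Isl1, Tbx5, Hand2 and Mef2c were not above background, so the name cardiac progenitor factors describes the genes and not a cell type detected here.

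**Figure D3:**
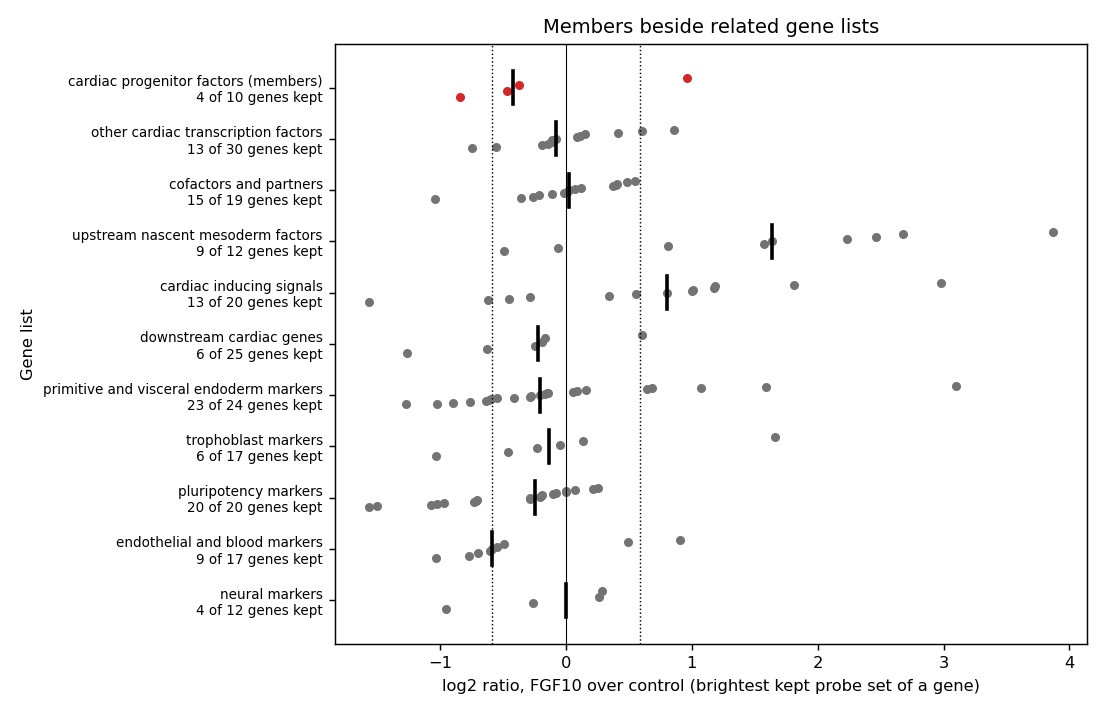
Log2 ratio of FGF10 over control for each gene with a kept probe set, in the members (top row) and 10 related gene lists; each point is 1 gene, the vertical bar is the list's median and dotted lines mark 1.5-fold. Gata6 (0.96) stands right of the other 3 members, and the nascent mesoderm factors have the median farthest to the right (1.63).

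Markers of other cell types that express some of these factors were read beside them. Of 24 primitive and visceral endoderm markers, which bear on Gata4 and Gata6, 23 were kept, 5 of them higher and 7 lower. Their median was -0.21, and their summed signal was 41042 in the control and 41406 with FGF10. Sums here and in the lists below add probe sets whose levels are not comparable, and they follow the brightest genes. They do not gauge the amount of a cell type. In the endoderm sum, Fst went from 2414.3 to 7454.6 while 7 genes were lower. The higher ones were Foxa2 (3.10), Fst (1.59), Pdgfra (1.07), Sox17 (0.68) and Nid1 (0.64), and the lower ones included Apoa1 (-1.27), Hnf4a (-0.90), Cubn (-0.76) and Sox7 (-0.61). Kept probe sets ran from -0.90 to 0.15 for Hnf4a and from -0.16 to 0.64 for Nid1, so both genes had ratios of both signs. Gata6 thus had the sign of Foxa2, Pdgfra and Sox17 and the opposite sign to Apoa1, Cubn and Sox7. The part of endoderm in the Gata6 ratio was not tested.

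Of 20 pluripotency markers all 20 were kept, with 0 higher and 8 lower, a median of -0.24 and summed signals of 77602 and 65381. Hopx shared its direction with these 8, among them Dppa4 (-0.97), Dppa5a (-1.03) and Fgf4 (-1.56), but not with the core factors Pou5f1 (0.073), Nanog (0.22) and Sall4 (0.26), and Sox2 was near 0 (-0.0026). The part of undifferentiated cells in the Hopx ratio was not tested. For Hand1, 6 of 17 trophoblast markers were kept, 1 higher (Tfap2c, 1.66) and 1 lower (Gata2, -1.03), summing to 5485 and 5828, and the defining markers Cdx2 and Elf5 were below the filter. The FGF10 signal of Gata2 (66.8) was under the filter level. For Mef2c, 9 of 17 endothelial and blood markers were kept, 1 higher (Flt1, 0.91) and 4 lower, with a median of -0.58 and sums of 2443 and 2098, and Kdr, Pecam1 and Cdh5 were below the filter. For Isl1, 4 of 12 neural markers were kept, 0 higher and 1 lower (Pax6, -0.95), summing to 1062 and 1119, and the FGF10 signal of Pax6 (53.6) was under the filter level.

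The ratios of Gata6, Hopx and Nkx2-5 moved by less than 0.267, the technical SD of a ratio from pairs of probe sets that read the same gene (5213 genes), and that of Gata4 moved by more. Gata6 ran from 0.90 to 1.07 over the 11 settings that kept it, Hopx from -0.88 to -0.69 over 12, and Nkx2-5 from -0.38 to -0.29 over 10. Gata4 ran from -0.54 to -0.088 over 11, the last value being the mean of its opposed probe sets.

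**Figure D4:**
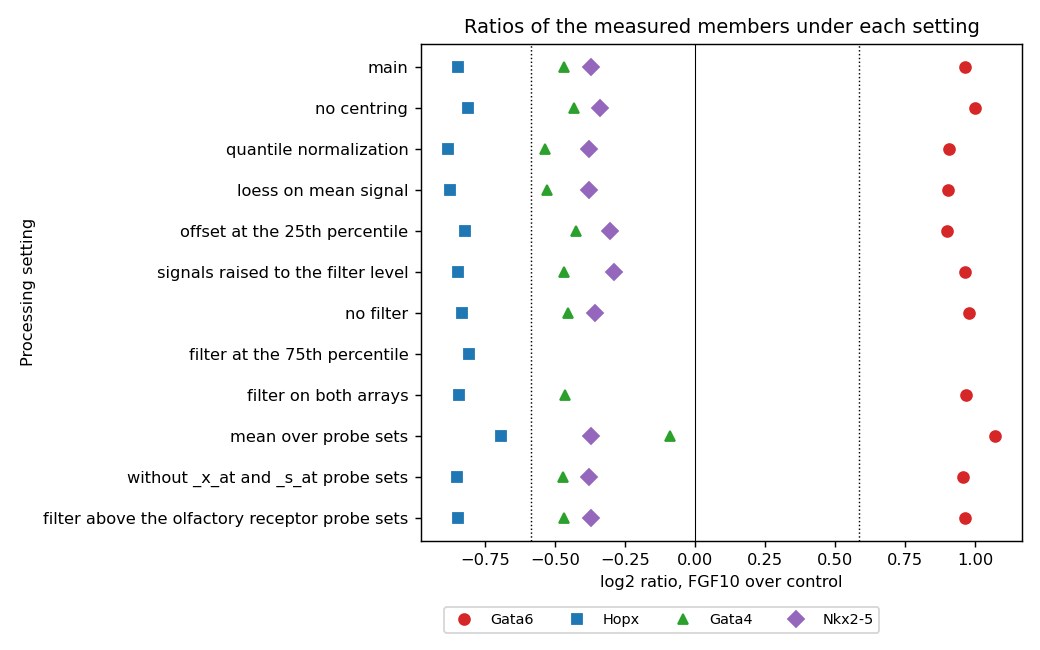
Log2 ratio of FGF10 over control for the 4 members with a kept probe set under each processing setting, 1 row per setting, with dotted lines at 1.5-fold; a missing point means that the setting's filter removed the gene. Gata6 stays between 0.90 and 1.07 and Hopx between -0.88 and -0.69 in the settings that keep them, while Gata4 approaches 0 when its probe sets are averaged.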

How the data were processed

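Biotin-labelled total RNA of each group was read on 1 Affymetrix array. The deposited values are linear intensity from MAS5, per the submitters' processing notes, with version and settings not given in the sources used here. Without its lowest and highest 2%, the mean of each column was 499.6, so the arrays had been brought to a common level and ratios are relative to the rest of an array. Of 45037 probe sets that are not chip controls, 34945 had 1 gene in the platform annotation, 932 several and 9160 none listed; symbols of the 10 members matched the gene table through their identifiers. The filter, centring and gene rule are given in the report, and no pseudocount was added. Differences were counted at 1.5-fold and not tested; precision is limited by there being 1 array per group. All members, the up to 6 list genes with the largest absolute ratio and those past 1.5-fold could be named; others named in the text (Mef2a, Mef2d, Zfpm1, Ldb1, Srf, Sox2, Pou5f1, Nanog, Sall4 and the genes below the filter) were chosen for their relation to a member, after values were seen. Members and the 10 gene lists were chosen with earlier results of these data known. Old symbols of a gene already listed were not counted. Listed genes with no probe set of their own name, of which T is named in the text, were not analysed here. Calculations used Python 3.11.15, pandas 2.3.3 and statsmodels 0.14.6. The arithmetic of the ratios was tested on simulated data with ratios planted in brighter probe sets only, which does not gauge error at dim signals.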

Additional observations from a re-analysis of the deposited data

How the results depend on the processing

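Without the signal filter, the count past 1.5-fold was 8 member probe sets higher against 4 lower, and by gene 2 were higher (Gata6 and Hand2) and 2 lower (Hopx and Tbx5); the additions are dim probe sets within the olfactory receptor range. With a filter at the 75th percentile of mean signal, 0 probe sets and 0 genes were higher, because Gata6 was then removed. At a threshold of 2-fold, 1 probe set (of Gata6) and 0 genes were higher, and 0 probe sets and 0 genes lower. After quantile or loess normalization 2 probe sets were lower, both of Hopx. The counts by probe set and by gene were within 1.5 times their main values with no centring, an offset at the 25th percentile, signals raised to the filter level, a filter on both arrays and with _x_at and _s_at probe sets left out, as were the counts by gene with the mean over probe sets. A filter above the olfactory receptor probe sets, chosen after seeing the data, left them so too. In 0 settings did a member past 1.5-fold change sign. With the filter on both arrays, the lower counts of the related lists went from 1 to 0 for cofactors, trophoblast and neural markers, from 2 to 1 for downstream cardiac genes and from 4 to 2 for endothelial and blood markers, and the median of the trophoblast markers from -0.14 to 0.047; higher counts went from 1 to 0 for downstream cardiac genes and from 2 to 1 for other cardiac factors. Array brightness limits the reading: 6 of 10 members were not above background, and 1 array per group gives no error between cultures.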
